A study of Danio rerio with 6 samples.

Results

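Long non-coding RNAs (lncRNAs) assembled at genes for ion channels and neurotransmitter receptors were examined in ZF4 cells, a fibroblast-like line from zebrafish embryos. Cold acclimated cells had been held at 18°C for 30 days (3 samples), and control cells had been kept in the same medium at 28°C (3 samples). Nothing in the labels says whether samples of a group came from separate cultures. Members were chosen by the name of the gene that the table sets beside each lncRNA as the nearest. Whether the lncRNA overlaps that gene is not stated, so the word at below stands for this naming only. The stems of the chosen names include cacn, kcn, scn, trp, gri, grm, gabr, chrn, htr, drd, asic and ryr. This gave 103 lncRNAs at 65 genes, out of 8363 listed lncRNAs, of which 3204 have a named gene. The other 3101 lncRNAs with a named gene are the comparison used throughout. Transcripts the same as or similar to known lncRNAs had been filtered out beforehand. The words all lncRNAs below therefore stand for the listed ones, not for every lncRNA of the cells.

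Ion channels are membrane proteins that open a pore for sodium, potassium, calcium or chloride, in response to voltage, to a ligand, to protons or to temperature. Neurotransmitter receptors are either channels themselves, such as the AMPA, kainate and NMDA receptors for glutamate, or receptors that signal through G proteins, such as those for serotonin and dopamine. Most of these proteins are best known from neurons and muscle. An lncRNA listed at such a gene is an assembled transcript that passed filters for coding potential, and whether it overlaps exons of the gene was not analysed here. Its level says nothing of the level of the channel itself, which was not measured here.

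The expression values are FPKM, that is fragments scaled to transcript length and to the mapped fragments of the library, so levels can be compared between transcripts of unequal length. The table holds a single mean FPKM per group, beside the authors' own statistics, which were not used. The means give no spread between samples, no test between the groups was made, and words such as higher and lower below describe the 2 group means only. The number of reads behind each mean is unknown. Differences are log2 ratios with cold acclimated cells on top and control cells below, after 0.1 FPKM was added to each mean, so for low transcripts they are smaller than the plain ratio. Each 2-fold and 4-fold threshold was applied on this scale, and transcripts listed at 0 in a group were counted on it too. The table lists lncRNAs only, so the markers of fibroblasts were not analysed here, and it gives neither the strand nor whether an lncRNA lies in an intron of the gene. Of the 65 genes, 64 were matched to a protein-coding gene in RefSeq (assembly GRCz12tu), in each case on the chromosome that the table gives in GRCz10. Among these, ano1 and scn1a were matched under other symbols, ano1a and scn1laa. No match was found for kcnt2.

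By what the named genes encode, the lncRNAs fell into 12 classes. Genes of ionotropic glutamate receptors had the most, with 19 lncRNAs at 10 genes. Potassium channels had 15 at 12 genes, monoamine receptors 15 at 4 genes, and voltage-gated calcium channels 12 at 10 genes. Receptors for GABA and glycine had 10 lncRNAs at 9 genes. Sodium and acid-sensing channels had 9 at 4 genes, and other cation channels 9 at 6 genes. The remaining 14 lay at genes of anoctamins (4), calcium release channels (4), metabotropic glutamate receptors (3), acetylcholine receptors (2) and a purine receptor (1). No gene was taken in by its name alone, since all 65 are named for channel subunits, their auxiliary proteins or receptors.

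A single lncRNA was listed at 44 of the 65 genes (67.7%), against 1680 of the 2192 other named genes (76.6%). The 21 genes with 2 or more held 59 of the 103 lncRNAs. Most were at htr7c, a gene for a serotonin receptor, with 11, followed by asic2, a proton-gated sodium channel, with 5. Genes with 3 were gria1a, grid1b and grik4, which encode glutamate receptor subunits, as well as kcnab2a, a potassium channel β-subunit, and ryr1b, the calcium release channel of skeletal muscle. The lncRNAs of 1 gene could lie far apart. Those at grid1b spread over 443.7 kb of chromosome 12 and those at grik4 over 426.1 kb of chromosome 15, whereas the 3 at gria1a lay within 3.60 kb of chromosome 14. These 103 transcripts have 101 locus identifiers. Those listed at 1 gene may still lie close together, so the 103 are not treated as independent of one another.

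The lncRNAs at channel and receptor genes were mostly unspliced. A single exon was listed for 80 of 103 (77.7%, 95% confidence interval 68.7% to 84.6%, Wilson), against 1845 of 3101 lncRNAs at other named genes (59.5%, 57.8% to 61.2%). These intervals cover counting error over transcripts only. Without the 11 lncRNAs at htr7c, the share was 75.0%, and with the most abundant lncRNA of each gene only, it was 73.8% (62.0% to 83.0%), against 61.7% (59.7% to 63.7%) for other named genes, where the intervals overlap. The share with 2 exons was 11.7%, against 27.2%, and that with 3 or more 10.7%, against 13.4%. In exon number the set was closer to lncRNAs with no named gene, of which 76.5% had 1 exon.

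The most exons, 5, were listed for MSTRG.6988.1 at scn2b, which encodes an auxiliary β-subunit of sodium channels, and for MSTRG.28889.1 and MSTRG.28889.2 at kcnd1, a voltage-gated potassium channel. Both transcripts at kcnd1 share a locus, so the division of reads between them is uncertain. Among the spliced lncRNAs, the widest interval was that of MSTRG.27648.2 at htr2cl1, a serotonin receptor gene, with 67.7 kb on chromosome 7 (23021152 to 23088801). MSTRG.7711.1 at gria4a, a subunit of AMPA receptors, followed with 66.9 kb on chromosome 15 (44499606 to 44566520), although the transcript itself has only 262 nt.

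The median length of the lncRNAs was 437 nt (95% interval of the median 391 to 566 nt, from binomial order statistics), against 508 nt at other named genes, and 75.7% were shorter than 1000 nt, against 74.0%. The shortest, of 202 nt, was MSTRG.10884.1 at kcnab1a. The longest, of 6507 nt in 1 exon, was MSTRG.24207.1 at htr7c. Without the lncRNAs at htr7c the longest was MSTRG.20846.1 at cacna1aa, with 3483 nt in 2 exons.

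In level, the lncRNAs at channel and receptor genes had lower medians than those at other named genes in both groups. Their median was 0.511 FPKM in cold acclimated cells and 1.00 FPKM in control cells, while those at other named genes had 0.812 FPKM in cold acclimated cells and 1.17 FPKM in control cells. The 95% intervals of the median over transcripts, 0.396 to 0.657 FPKM in cold acclimated cells and 0.836 to 1.25 FPKM in control cells, stayed below that of the other named genes (0.772 to 0.845) in cold acclimated cells and overlapped it (1.13 to 1.21) in control cells. In cold acclimated cells 23 of 103 (22.3%) were above 1 FPKM, and 52 (50.5%) were in control cells, against 42.2% and 58.4% of those at other named genes. A mean above 5 FPKM in either group was listed for 1 lncRNA (0.971%), against 10.8% of those at other named genes, and a mean above 10 FPKM for 0 of 103, against 4.93%. With the most abundant lncRNA of each gene only, the medians were 0.685 FPKM in cold acclimated cells and 1.00 FPKM in control cells, while other named genes had 0.876 FPKM in cold acclimated cells and 1.23 FPKM in control cells. The 95% intervals of the median in cold acclimated cells then overlapped, at 0.512 to 0.862 FPKM for channel and receptor genes and 0.840 to 0.930 FPKM for other named genes. Summed over the 103 lncRNAs, the means came to 78.8 FPKM in cold acclimated cells and 116.2 FPKM in control cells. At other named genes the sums were 12080.5 FPKM in cold acclimated cells and 11309.4 FPKM in control cells. Over all lncRNAs they were 31241 FPKM in cold acclimated cells and 26546 FPKM in control cells. Such sums follow the highest transcripts and do not describe the typical lncRNA. The highest mean over all lncRNAs was 6404 FPKM in cold acclimated cells and 1562 FPKM in control cells.

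**Figure D1:**
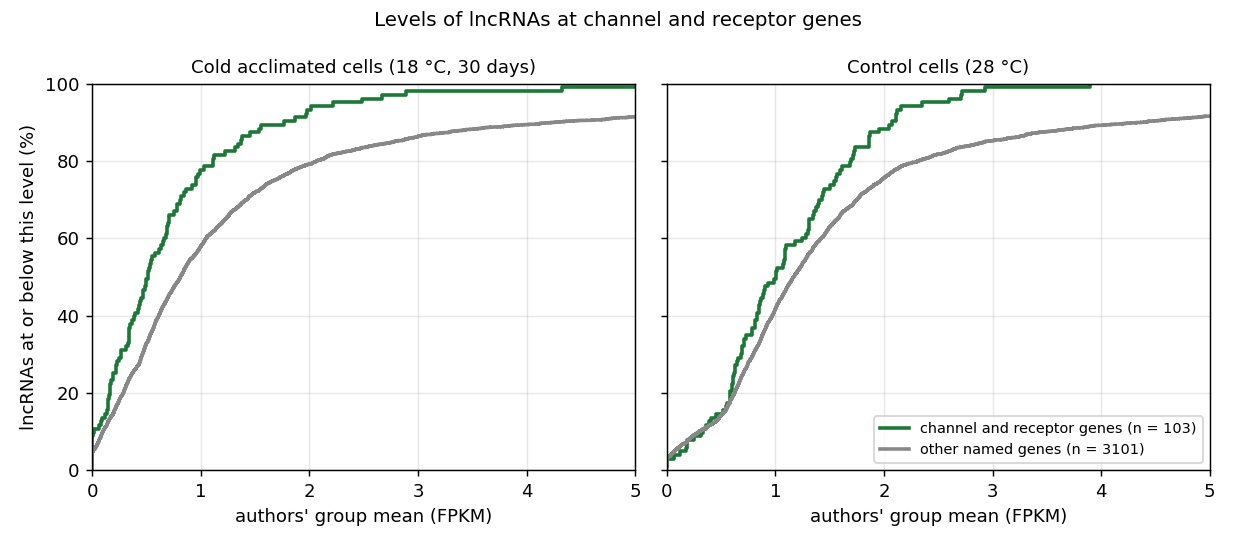
Cumulative share of lncRNAs (y axis, percent) at or below a given group mean (x axis, FPKM, shown up to 5) in cold acclimated cells (left) and control cells (right), for the 103 lncRNAs at channel and receptor genes (green) and the 3101 at other named genes (grey). The green line runs above the grey one over most of both panels, and 1 of the 103 lncRNAs lies beyond the axis in cold acclimated cells, where 266 of the others do.

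The highest level in either group was that of MSTRG.3057.1 at cacna1ab, which encodes the pore of a voltage-gated calcium channel of the P/Q type. The single exon of this lncRNA covers 579 nt of chromosome 11 (30650368 to 30650946), and it was listed at 6.87 FPKM in cold acclimated cells and 1.87 FPKM in control cells. Next came MSTRG.3515.1 at trpm4b.2, a calcium-activated cation channel, at 4.32 FPKM in cold acclimated cells and 2.08 FPKM in control cells. The highest level in control cells was that of MSTRG.6324.1 at gria1a, an AMPA receptor subunit, at 0.492 FPKM in cold acclimated cells and 3.89 FPKM in control cells. MSTRG.6988.1 at scn2b was second in control cells, at 0.165 FPKM in cold acclimated cells and 2.93 FPKM in control cells. The top 2 in the cold were thus not the top 2 at 28°C, although those at cacna1ab and trpm4b.2 ranked 14 and 11 there. MSTRG.19788.1 at ano3, of the anoctamin family, was high in both, at 2.89 FPKM in cold acclimated cells and 2.12 FPKM in control cells.

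For the response to cold, 98 of the 103 lncRNAs exceeded 0.5 FPKM in one or both group means. Of these, 51 (52.0%) were lower by more than 2-fold in the cold, and 13 (13.3%) were higher by more than 2-fold. Over all 8108 lncRNAs above the same limit, 39.4% were more than 2-fold lower and 13.3% more than 2-fold higher. The share of higher lncRNAs thus equalled the background, and that of lower ones exceeded it. Most of the lower lncRNAs passed the limit of 0.5 FPKM through control cells only. Most of the higher ones passed it through cold acclimated cells only. Both shares are therefore in part set by that limit, and whether the excess goes beyond it was not tested. Among the 5 lncRNAs not above 0.5 FPKM in either group were MSTRG.9451.1 at gabrr2a, MSTRG.3693.1 at grid1b, MSTRG.27651.1 at htr2cl1 and MSTRG.29230.1 at kcnq2a.

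The excess of lower lncRNAs was smaller when genes with several of them were given less weight. Without the 11 at htr7c, 40 of 87 (46.0%) were more than 2-fold lower. With the most abundant lncRNA of each gene only, 26 of 63 (41.3%) were, against 33.9% of those at other named genes counted in the same way and 39.4% of all lncRNAs. Over all lncRNAs above 0.5 FPKM the median log2 ratio was -0.63, so the typical lncRNA of the table was lower in cold acclimated cells. Relative to that median, 34 lncRNAs at channel and receptor genes were more than 2-fold lower (34.7%, background 23.9%) and 19 more than 2-fold higher (19.4%, background 23.5%). Of the lncRNAs past 2-fold, the lower ones then outnumbered the higher by 34 to 19 in place of 51 to 13. Without those at htr7c, 23 of 87 (26.4%) were more than 2-fold lower relative to that median, and with a single lncRNA per gene 16 of 63 (25.4%) were lower and as many higher.

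The median log2 ratio of the 98 lncRNAs was -1.08 (95% interval of the median -1.37 to -0.58), against -0.58 at other named genes. It was -0.85 without those at htr7c and -0.58 with a single lncRNA per gene, against -0.51 at other named genes counted likewise. In the last reading the set lay close to the other named genes.

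The response of spliced lncRNAs was compared with that of lncRNAs with 1 exon. At channel and receptor genes the median log2 ratio was -1.05 for 22 spliced lncRNAs and -1.08 for 76 with 1 exon, or -0.78 for single-exon ones without those at htr7c. At other named genes it was -0.24 for spliced lncRNAs and -0.83 for those with 1 exon. Among lncRNAs with a mean over both groups of 1 FPKM or more, 16 of 40 (40.0%) at channel and receptor genes were more than 2-fold lower, against 21.7% at other named genes. Without those at htr7c, 11 of 35 (31.4%) were. Levels in this range were not matched. In cold acclimated cells the median was 1.01 FPKM at channel and receptor genes and 1.63 FPKM at other named genes. In control cells it was 1.69 and 1.96 FPKM in the same order. With a mean of 0.5 to 1 FPKM, 17 of 37 (45.9%) were more than 2-fold lower, or 35.5% without htr7c, against 47.2% at other named genes. With a mean below 0.5 FPKM, 18 of 21 (85.7%) were, against 63.4%. The other 14.3% were more than 2-fold higher, against 26.9% at other named genes. Such lncRNAs passed the limit of 0.5 FPKM through 1 group only, so their large ratios are in part set by that limit. At a mean of 0.5 to 1 FPKM the share of lower lncRNAs was thus not greater, and below 0.5 FPKM it is not read as a result. Whether any of these differences exceeds the spread between samples cannot be told from group means.

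**Figure D2:**
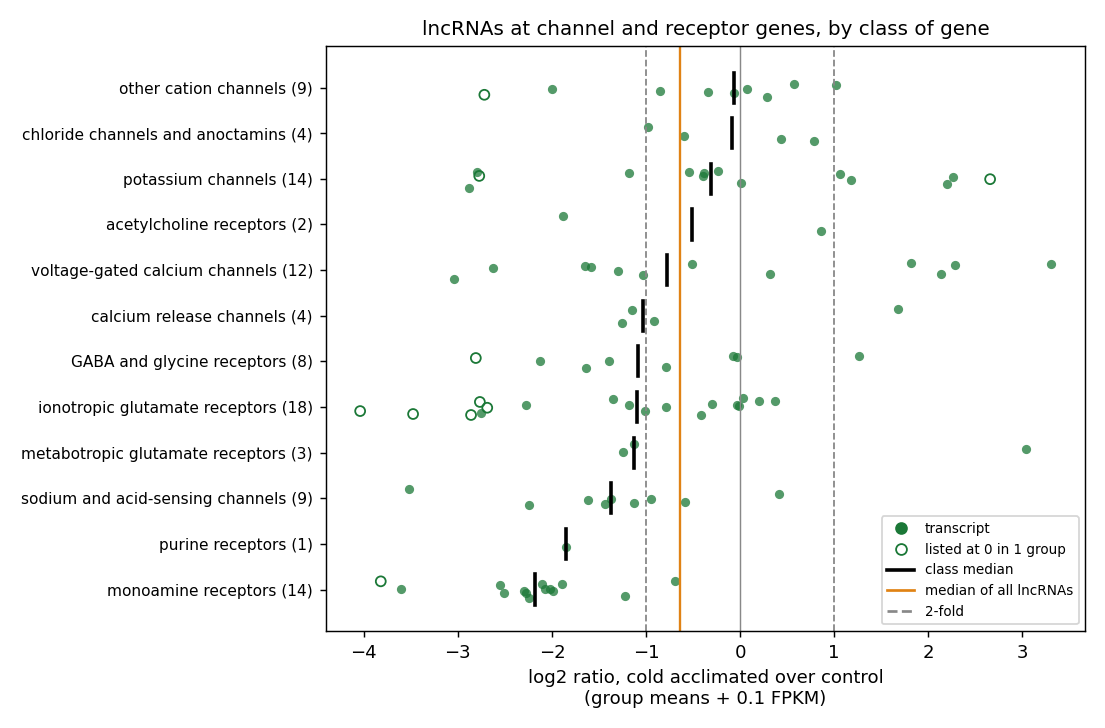
Log2 of cold acclimated over control means (x axis, 0.1 FPKM added to each) of the 98 lncRNAs above 0.5 FPKM in one or both groups, by class of gene (y axis, number of lncRNAs in brackets). Points are transcripts, open where 1 group is listed at 0, black bars are class medians, the orange line is the median of all lncRNAs (-0.63) and dashed lines mark 2-fold. Monoamine receptor genes lie lowest, with a median of -2.18, and other cation channels highest, with -0.07.

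The lncRNAs named below include, in each class, those furthest past 2-fold. The others were added after their values were seen, to account for each class. The counts by class stand beside a background of 39.4% more than 2-fold lower and 13.3% more than 2-fold higher. Voltage-gated calcium channels consist of a pore-forming α1-subunit with auxiliary α2δ-, β- and γ-subunits. Of 12 lncRNAs at their genes, 4 were higher by more than 2-fold in the cold, 6 were lower by more than 2-fold and 2 stayed within 2-fold. MSTRG.20846.1 at cacna1aa, the α1-subunit of P/Q-type channels, had the largest positive log2 ratio of all lncRNAs in the set, 3.30. It lies on chromosome 3 (33754276 to 33761634) and was listed at 2.67 FPKM in cold acclimated cells and 0.181 FPKM in control cells. The lncRNA at cacna1ab, the duplicate copy of the same gene in zebrafish, was also higher, with a log2 ratio of 1.82. The other 2 higher ones lay at genes of auxiliary subunits. MSTRG.26108.1 at cacng5a was at 0.709 FPKM in cold acclimated cells and 0.0656 FPKM in control cells. MSTRG.26886.1 at cacna2d2a was at 1.45 FPKM in cold acclimated cells and 0.254 FPKM in control cells. A further lncRNA at cacna2d2a, MSTRG.26888.1, lies 312.4 kb away and was lower, at 0.657 FPKM in cold acclimated cells and 1.45 FPKM in control cells.

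The other 5 lower lncRNAs of this class were at a β-subunit and at genes of L- and N-type channels. MSTRG.17393.1 at cacnb3a was at 0.335 FPKM in cold acclimated cells and 2.59 FPKM in control cells. At the L-type genes, MSTRG.3155.1 at cacna1da was at 0.0105 FPKM in cold acclimated cells and 0.809 FPKM in control cells, MSTRG.29793.1 at cacna1db at 0.263 FPKM in cold acclimated cells and 0.987 FPKM in control cells, and MSTRG.29584.1 at cacna1fa at 0.159 FPKM in cold acclimated cells and 0.711 FPKM in control cells. MSTRG.24528.1 at cacna1ba, the pore of N-type channels, was at 0.218 FPKM in cold acclimated cells and 0.680 FPKM in control cells. At the P/Q-type genes, with 1 lncRNA each, the lncRNAs were thus higher in the cold. At 4 genes of the other α1-subunits at least 1 lncRNA was more than 2-fold lower. These 4 lower lncRNAs passed the limit of 0.5 FPKM through control cells only, and the one at cacna1aa through cold acclimated cells only. Relative to the median of all lncRNAs, those at cacna1db and cacna1ba were within 2-fold. No contrast between channel types is therefore drawn. Within 2-fold were MSTRG.3153.1 at cacna1da, at 0.676 FPKM in cold acclimated cells and 0.523 FPKM in control cells, and MSTRG.22042.1 at cacna2d1a, at 1.87 FPKM in cold acclimated cells and 2.72 FPKM in control cells. Relative to the median of all lncRNAs, 4 lncRNAs at calcium channel genes were more than 2-fold higher and 3 more than 2-fold lower, with a class median of -0.14.

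Potassium channels had the most lncRNAs that were higher in the cold, 5 of 14 above the limit, with 4 lower and 5 within 2-fold. The class median log2 ratio was -0.31, and 0.32 relative to all lncRNAs, so its sign depended on the scaling. Higher were lncRNAs at genes of β-subunits, which bind voltage-gated potassium channels from the cytoplasm. At kcnab2a on chromosome 11, MSTRG.3236.1 was at 1.97 FPKM in cold acclimated cells and 0.331 FPKM in control cells, and MSTRG.3235.1 at 0.997 FPKM in cold acclimated cells and 0.385 FPKM in control cells. The third, MSTRG.3234.1, was at 0.709 FPKM in cold acclimated cells and 1.08 FPKM in control cells, a log2 ratio of -0.55. MSTRG.10884.1 at kcnab1a was at 0.531 FPKM in cold acclimated cells and listed at 0 in control cells.

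MSTRG.8377.1 at kcnn4, a calcium-activated potassium channel found outside the nervous system, covers 1041 nt of chromosome 16 (24835316 to 24836356) in a single exon. It was at 2.02 FPKM in cold acclimated cells and 0.361 FPKM in control cells, a log2 ratio of 2.20. MSTRG.5802.1 at kcnk4a, a leak channel gene, was at 1.55 FPKM in cold acclimated cells and 0.689 FPKM in control cells. Its relatives differed, since MSTRG.5182.1 at kcnk1b was listed at 0 in cold acclimated cells and at 0.583 FPKM in control cells, and MSTRG.14012.1 at kcnk3a was at 0.653 FPKM in cold acclimated cells and 0.650 FPKM in control cells.

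Among genes of fast voltage-gated channels and their partners, kcnc1b and kcnip3b had an lncRNA that was more than 2-fold lower, and kcnd1 and kcnc2 had none. MSTRG.19209.1 at kcnc1b was at 0.0193 FPKM in cold acclimated cells and 0.782 FPKM in control cells. MSTRG.1732.1 at kcnip3b, which encodes a calcium-binding protein that associates with channels of the kcnd family, was at 0.147 FPKM in cold acclimated cells and 1.62 FPKM in control cells. At kcnd1 itself both lncRNAs were within 2-fold, at 0.778 and 0.978 FPKM in cold acclimated cells and 0.935 and 1.31 FPKM in control cells. MSTRG.21572.1 at kcnc2 was at 1.77 FPKM in cold acclimated cells and 2.35 FPKM in control cells. MSTRG.12623.1 at kcnt2, a sodium-activated potassium channel, was lower, at 0.702 FPKM in cold acclimated cells and 1.72 FPKM in control cells. At kcnq2a, MSTRG.29230.1 was at 0.432 FPKM in cold acclimated cells and listed at 0 in control cells, below the limit for a ratio.

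Sodium and acid-sensing channels had 6 lncRNAs more than 2-fold lower in the cold, 3 within 2-fold and 0 more than 2-fold higher. Relative to the median of all lncRNAs, only 2 were more than 2-fold lower and 1 was more than 2-fold higher. MSTRG.6988.1 at scn2b on chromosome 15 (12576790 to 12596032) had 1175 nt in 5 exons and a log2 ratio of -3.51, with the levels given above. At scn1a, a pore-forming subunit, both lncRNAs were within 2-fold, with log2 ratios of -0.95 and -0.58.

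At asic2 on chromosome 3, 4 of the 5 lncRNAs were lower in the cold. MSTRG.21022.1, MSTRG.21023.1, MSTRG.21024.1 and MSTRG.21025.1 lay close together, with 0.493, 0.351, 0.511 and 0.577 FPKM in cold acclimated cells and 2.71, 1.29, 1.56 and 1.38 FPKM in control cells. The interval of the spliced MSTRG.21023.1 encloses the next 2. The fifth, MSTRG.21028.1, began 348.8 kb beyond the end of MSTRG.21025.1. It was at 1.38 FPKM in cold acclimated cells and 1.01 FPKM in control cells. The neighbours at asic2 were therefore alike and the distant one was not. At asic1c, MSTRG.18713.1 was at 0.176 FPKM in cold acclimated cells and 0.612 FPKM in control cells.

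At other cation channel genes the groups differed little. Of 9 lncRNAs, 6 were within 2-fold, among them those at trpa1b, a channel opened by irritants, at 1.32 FPKM in cold acclimated cells and 0.853 FPKM in control cells, and at trpm2, at 0.957 FPKM in cold acclimated cells and 0.908 FPKM in control cells. The class median was -0.07, or 0.57 relative to all lncRNAs. Of the lncRNAs past 2-fold, 2 lay at trpm4b.2, in opposite directions. MSTRG.3515.1 had a log2 ratio of 1.02, whereas MSTRG.3514.1, 46.8 kb away, was listed at 0 in cold acclimated cells and at 0.558 FPKM in control cells. Both lncRNAs at trpc7a were between 0.527 and 1.54 FPKM in cold acclimated cells and between 0.692 and 1.25 FPKM in control cells.

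All 4 lncRNAs at anoctamin genes were within 2-fold, although relative to the median of all lncRNAs 2 were more than 2-fold higher and 0 more than 2-fold lower. At ano1, which encodes a calcium-activated chloride channel, MSTRG.28244.1 was at 2.49 FPKM in cold acclimated cells and 1.40 FPKM in control cells. MSTRG.19788.1 at ano3, given above, was joined at the same gene by MSTRG.19786.1, at 0.749 FPKM in cold acclimated cells and 1.57 FPKM in control cells, and MSTRG.2515.1 at ano8b was at 1.11 FPKM in cold acclimated cells and 1.73 FPKM in control cells. The class had the highest median level in the cold of the 12 classes, 1.80 FPKM, with 1.65 FPKM in control cells. At ryr1b, by contrast, the 3 lncRNAs were lower, with 0.917, 0.342 and 0.539 FPKM in cold acclimated cells and 2.15, 0.732 and 1.43 FPKM in control cells for MSTRG.10928.1, MSTRG.10929.1 and MSTRG.10929.2. Of these, MSTRG.10929.1 was within 2-fold, with a log2 ratio of -0.91. MSTRG.10929.1 and MSTRG.10929.2 differ by 1 nt in length (1054 and 1053 nt) and share a locus, so the division of reads between them is uncertain. MSTRG.14362.1 at ryr3, a related calcium release channel, was higher, at 0.620 FPKM in cold acclimated cells and 0.124 FPKM in control cells. Relative to the median of all lncRNAs, 0 of the 4 at calcium release channel genes were more than 2-fold lower and 1 was more than 2-fold higher.

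Ionotropic glutamate receptors had 10 of 18 lncRNAs more than 2-fold lower in the cold and 0 more than 2-fold higher. Relative to the median of all lncRNAs, 7 were more than 2-fold lower and 1 was more than 2-fold higher. Of the 9 lncRNAs in the set that were listed at 0 in cold acclimated cells, 5 lay here. At gria1a, which encodes an AMPA receptor subunit, 3 lncRNAs with 1 exon each followed one another on chromosome 14 (33890890 to 33894487). MSTRG.6323.1 was listed at 0 in cold acclimated cells and at 1.54 FPKM in control cells, and MSTRG.6324.1 was at 0.492 FPKM in cold acclimated cells and 3.89 FPKM in control cells. The third, MSTRG.6325.1, was at 1.13 FPKM in cold acclimated cells and 1.10 FPKM in control cells. The first and the second, 0.290 kb apart, were thus both lower, and the third, 1.23 kb from the second, was nearly equal in both groups.

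At gria4a, a further AMPA receptor subunit, both lncRNAs were lower. MSTRG.7711.1 was listed at 0 in cold acclimated cells and at 1.01 FPKM in control cells, and MSTRG.7718.1 was at 0.0843 FPKM in cold acclimated cells and 0.789 FPKM in control cells. At gria3b, MSTRG.5890.1 was within 2-fold, at 1.03 FPKM in cold acclimated cells and 1.86 FPKM in control cells.

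Kainate receptor genes showed the same mixture. At grik4, MSTRG.7202.1 and MSTRG.7203.1 had listed means of 0 in the cold and 0.544 and 0.626 FPKM in control cells, whereas MSTRG.7201.1 was at 1.34 FPKM in cold acclimated cells and 1.35 FPKM in control cells. At grik1a, MSTRG.1842.1 was lower, at 0.167 FPKM in cold acclimated cells and 0.581 FPKM in control cells, and MSTRG.1843.1 within 2-fold, at 0.956 FPKM in cold acclimated cells and 1.31 FPKM in control cells. MSTRG.8059.1 at grik5 was at 0.862 FPKM in cold acclimated cells and 1.09 FPKM in control cells.

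At the NMDA receptor genes 1 of 4 lncRNAs passed 2-fold. It was MSTRG.846.1 at grin2bb, at 0.488 FPKM in cold acclimated cells and 1.09 FPKM in control cells, just past the limit with a log2 ratio of -1.02. MSTRG.845.1 at the same gene was at 0.845 FPKM in cold acclimated cells and 0.864 FPKM in control cells. MSTRG.186.1 at grin2ab, with 4 exons, was at 1.98 FPKM in cold acclimated cells and 1.51 FPKM in control cells, and MSTRG.11480.1 at grin2da at 1.37 FPKM in cold acclimated cells and 1.18 FPKM in control cells. At grid1b, of the δ family, MSTRG.3692.1 was listed at 0 in cold acclimated cells and at 0.580 FPKM in control cells, and MSTRG.3694.1 was at 0.216 FPKM in cold acclimated cells and 0.614 FPKM in control cells. MSTRG.3693.1, at 0.450 FPKM in cold acclimated cells and 0.187 FPKM in control cells, was below the limit.

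Metabotropic glutamate receptors signal through G proteins. At grm5b on chromosome 15, MSTRG.7655.1 had the second largest positive log2 ratio of the set, 3.04, with 2.22 FPKM in cold acclimated cells and 0.182 FPKM in control cells. MSTRG.7656.1, 54.3 kb away at the same gene, was lower, at 0.193 FPKM in cold acclimated cells and 0.597 FPKM in control cells. MSTRG.3129.1 at grm2b was also lower, at 0.228 FPKM in cold acclimated cells and 0.615 FPKM in control cells. Relative to the median of all lncRNAs, 0 of the 3 in this class were more than 2-fold lower and 1 was more than 2-fold higher.

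At receptors for GABA and glycine, which carry inhibitory signals, 4 of 8 lncRNAs were more than 2-fold lower and 1 more than 2-fold higher. Relative to the median of all lncRNAs, 3 were more than 2-fold lower and 1 was more than 2-fold higher. MSTRG.7487.1 at gabbr1a, a subunit of the G protein-coupled GABA-B receptor, was at 0.117 FPKM in cold acclimated cells and 0.851 FPKM in control cells. Among the genes of GABA-gated channels, MSTRG.4044.1 at gabrz was listed at 0 in cold acclimated cells and at 0.601 FPKM in control cells, and MSTRG.15816.1 at gabrb4 was at 0.396 FPKM in cold acclimated cells and 1.44 FPKM in control cells. The copies gabra6a and gabra6b differed, at 0.190 FPKM in cold acclimated cells and 0.660 FPKM in control cells for MSTRG.6030.1 and 0.688 FPKM in cold acclimated cells and 0.709 FPKM in control cells for MSTRG.15971.1. At the glycine receptor genes, MSTRG.6112.1 at glra1 was higher, at 1.11 FPKM in cold acclimated cells and 0.404 FPKM in control cells, and MSTRG.709.1 at glra3 within 2-fold, at 0.441 FPKM in cold acclimated cells and 0.831 FPKM in control cells. At gabrr2a, MSTRG.9452.1 was at 0.785 FPKM in cold acclimated cells and 0.836 FPKM in control cells, and MSTRG.9451.1, below the limit, at 0.0920 FPKM in cold acclimated cells and 0.452 FPKM in control cells.

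Both nicotinic acetylcholine receptor genes had 1 lncRNA each. MSTRG.14167.1 at chrna2b was at 0.386 FPKM in cold acclimated cells and 1.69 FPKM in control cells, and MSTRG.10989.1 at chrna5 was at 1.22 FPKM in cold acclimated cells and 0.627 FPKM in control cells, within 2-fold. The only lncRNA at a purine receptor gene, MSTRG.29369.1 at p2rx7, which is opened by ATP, was lower, at 0.512 FPKM in cold acclimated cells and 2.11 FPKM in control cells.

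Monoamine receptors had the lowest class median, -2.18, or -1.54 relative to all lncRNAs, with 13 of 14 lncRNAs more than 2-fold lower and 0 higher. Of the 13, 11 lay at htr7c. Relative to the median of all lncRNAs, 12 were more than 2-fold lower and 0 more than 2-fold higher. MSTRG.6076.1 at drd1a, a dopamine receptor gene, has 326 nt in 3 exons on chromosome 14 (23738833 to 23777903) and was at 0.0608 FPKM in cold acclimated cells and 1.86 FPKM in control cells, a log2 ratio of -3.61. MSTRG.18505.1 at drd3 was within 2-fold, at 0.805 FPKM in cold acclimated cells and 1.36 FPKM in control cells. At htr2cl1, MSTRG.27648.2 was at 0.685 FPKM in cold acclimated cells and 1.73 FPKM in control cells, and MSTRG.27651.1, below the limit, at 0.472 FPKM in cold acclimated cells and 0.318 FPKM in control cells.

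The 11 lncRNAs at htr7c formed a run on chromosome 5 (16010556 to 16057694). Each had a single exon, their lengths summed to 29.2 kb of an interval of 47.1 kb (62.0%), and the gaps between them ranged from 0.261 to 6.29 kb. All were lower in the cold, with a minimum of 0, a median of 0.261 and a maximum of 0.423 FPKM in cold acclimated cells, against 0.886, 1.59 and 2.11 FPKM in control cells. The lowest value in control cells was that of MSTRG.24205.1, and the highest in cold acclimated cells was that of MSTRG.24207.1. Each of the 11 lncRNAs passed the limit of 0.5 FPKM through control cells only. The separation of the 2 ranges is therefore in part set by that limit. Apart from MSTRG.24202.1, which was listed at 0 in cold acclimated cells and at 1.31 FPKM in control cells, the log2 ratios lay between -2.55 and -1.89. The lncRNAs of the run were thus alike in exon number, level and response, and they are not counted as independent evidence of a change.

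The run began 2.29 kb after the end of MSTRG.24200.1, a spliced lncRNA at the adjoining gene piwil2, which encodes a protein of the piRNA pathway in the germline. That lncRNA was also lower, at 0.217 FPKM in cold acclimated cells and 2.04 FPKM in control cells. On the other side no lncRNA was listed for 135.0 kb.

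**Figure D3:**
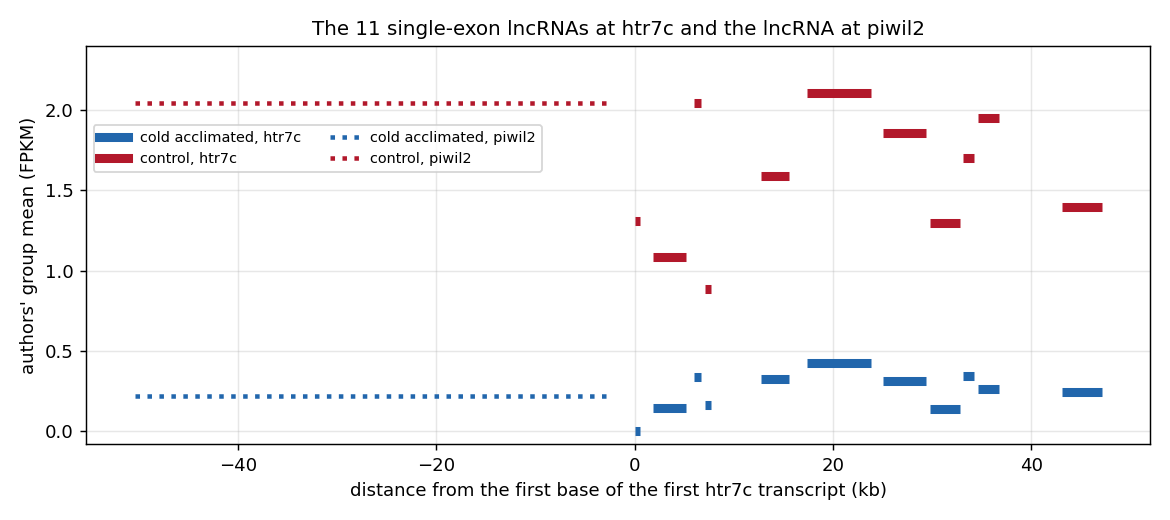
Group means (y axis, FPKM) of the 11 lncRNAs at htr7c (thick bars) and of the lncRNA at piwil2 (dotted) by distance from the start of the first htr7c transcript (x axis, kb), in cold acclimated (blue) and control (red) cells. Each bar spans the transcript's interval. Blue bars at htr7c lie at 0.423 FPKM or less and red ones at 0.886 FPKM or more. All 11 passed the limit of 0.5 FPKM through control cells only.

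Among the 21 genes with 2 or more lncRNAs, all lncRNAs were lower in cold acclimated cells at 10 genes, both directions occurred at 11, and at 0 genes were all higher. All were thus lower at 47.6% of these genes, close to the 45.1% of the 512 other named genes with 2 or more lncRNAs. Both directions were found at 52.4% of these genes, also against 45.1%. All lncRNAs were higher at 50 of the 512 other named genes. Opposite directions past 2-fold were found at 3 of the 21 genes (14.3%), namely cacna2d2a, grm5b and trpm4b.2, against 11.7% of the other named genes. The log2 ratios lay closest together at kcnd1, ryr1b and scn1a. At kcnd1 and ryr1b some of these transcripts share a locus.

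**Figure D4:**
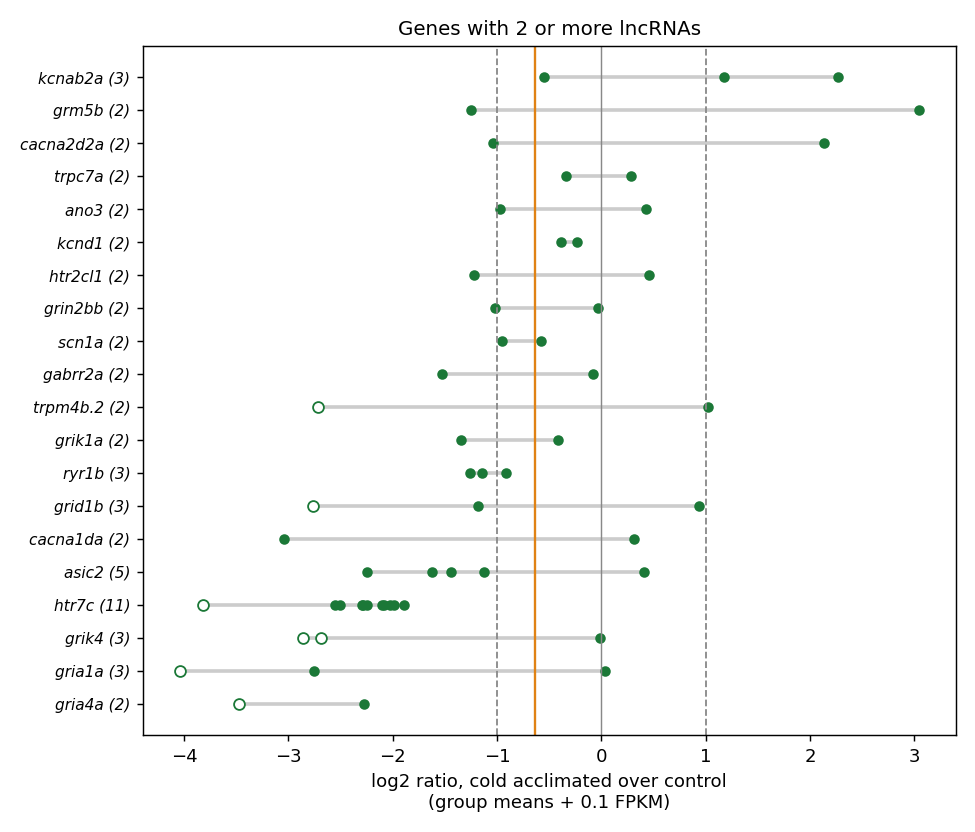
Log2 of cold acclimated over control means (x axis, 0.1 FPKM added to each) of each lncRNA at 20 genes with 2 or more (y axis, number in brackets), including those not above 0.5 FPKM in either group. Open points are listed at 0 in 1 group, dashed lines mark 2-fold and the orange line the median of all lncRNAs (-0.63). All 11 points of htr7c lie below -1, whereas those of grm5b run from -1.25 to 3.04.

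Listed at 0 in cold acclimated cells were 9 of the 103 lncRNAs (8.74%, 95% interval 4.67% to 15.8%, Wilson), against 4.64% at other named genes. With the most abundant lncRNA of each gene only, the share was 4.62%, against 3.79%. Beside those at gria1a, gria4a, grik4, grid1b, gabrz, kcnk1b and htr7c, MSTRG.3514.1 at trpm4b.2 belonged to them. All 9 were at most 523 nt long. Listed at 0 in control cells were 3 lncRNAs (2.91%, against 3.22%), among them those at kcnab1a and kcnq2a, and all 3 were at most at 0.531 FPKM in cold acclimated cells. A listed 0 may be a failed estimate, and no fold is given against it.

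More than 4-fold apart were 35 lncRNAs, of which 28 were lower in the cold (28.6%, background 16.6%), at 17 genes, and 7 higher (7.14%, background 6.02%). Without those at htr7c, 19 of 87 (21.8%) were more than 4-fold lower. The 7 lay at cacna1aa, grm5b, kcnab1a, cacng5a, kcnab2a, kcnn4 and cacna2d2a, so that 3 of them were at calcium channel genes and 3 at potassium channel genes. The 28 spread over 7 of the 12 classes, with 10 at monoamine receptor genes, 9 of these at htr7c, and 7 at ionotropic glutamate receptor genes.

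**Figure D5:**
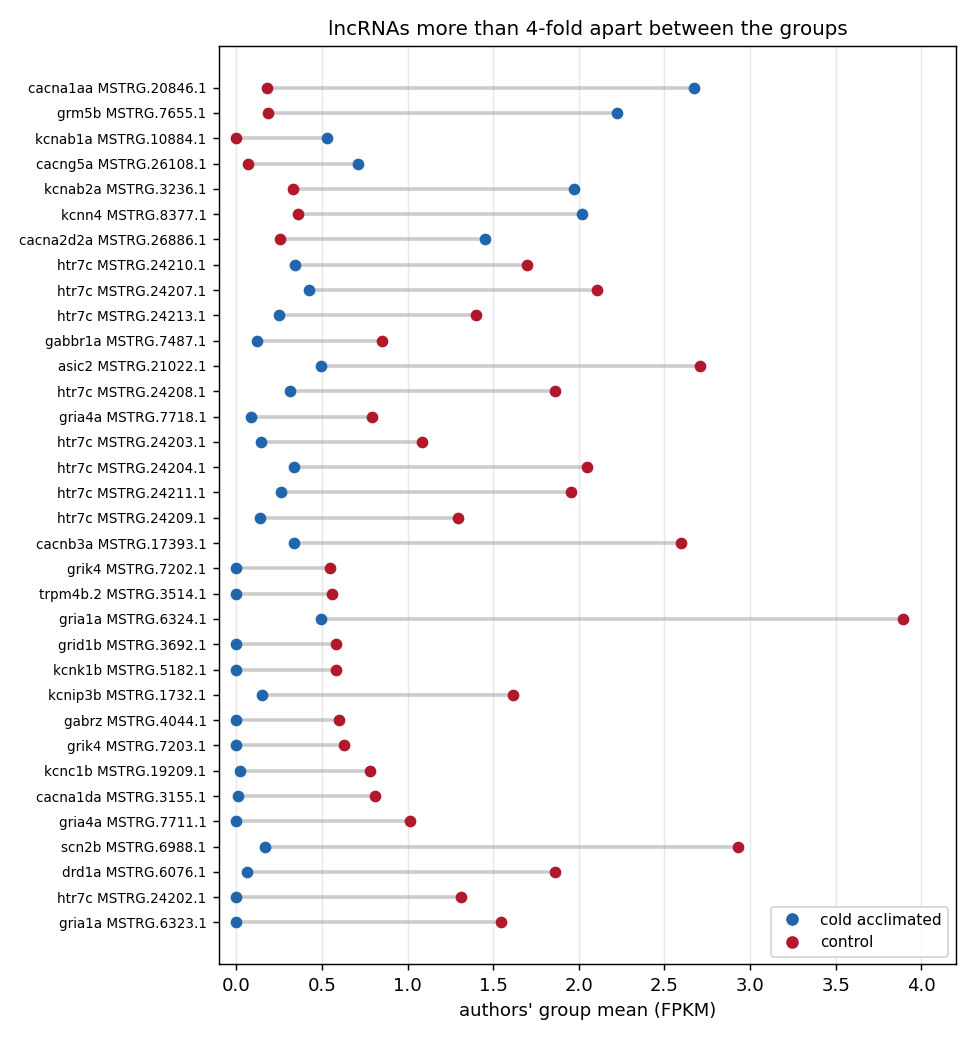
Group means (x axis, FPKM) in cold acclimated (blue) and control (red) cells of 34 of the lncRNAs more than 4-fold apart, ordered by log2 ratio with the most positive at the top (y axis, gene and transcript). A grey line joins the means of a transcript, and the 7 transcripts at the top are higher in cold acclimated cells, and the 27 below are higher in control cells. Each transcript passed the limit of 0.5 FPKM only through the group in which it is higher.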

How the data were processed

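Total RNA of 6 ZF4 samples had been made into stranded, ribosomal RNA-depleted libraries and sequenced as read pairs. According to the submitters' processing notes and the methods, reads were aligned to GRCz10 with HISAT2 2.1.0 and assembled and quantified with StringTie 1.3.3. Transcripts that failed filters on known annotation, length, exon number and coding potential, or stayed at or below 0.5 FPKM in every sample, were removed. The deposited FPKM values are the means of the authors over 3 samples per group, with exon number, length and position. The table also holds the authors' fold changes, p-values, FDR and calls, which were not used.

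From the means, log2((cold acclimated + 0.1)/(control + 0.1)) was computed where one or both means exceeded 0.5 FPKM, and 2-fold was the threshold. Group means allow no test. Intervals of shares are 95% Wilson intervals and those of medians come from order statistics. Depth is unknown, so that no interval on a level was given. The calculations used Python 3.11.15 with matplotlib 3.10.9, scipy 1.17.1, pandas 2.3.3 and numpy 2.4.6. The calculation of the ratio was checked on simulated data with large planted changes and little noise. That check says nothing of the precision of ratios at low levels.

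The members and classes were chosen with earlier results of these data known. Named by rule were, in each class, up to 3 lncRNAs past 2-fold in each direction, the 5 with the highest level, those at genes with 3 or more, those with the most exons or greatest length, and the highest 3 listed at 0 in each group. Others were named after their values were seen. Alternatives were the pseudocount, the filter, the scaling, 1 transcript per locus or gene, and the choice of members. No sequence was analysed here, and a few lncRNAs that enter the counts are not reported or plotted by name.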

Additional observations from a re-analysis of the deposited data

How the results depend on the processing

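No value per sample was at hand, so leaving out a replicate could not be run. No paired analysis was possible because the table holds a single mean per group. With a pseudocount of 1 FPKM in place of 0.1, 5 of 98 lncRNAs were more than 2-fold higher and 16 more than 2-fold lower. The median log2 ratio was then -0.45. It was also -0.45 after centring on the median of all lncRNAs. With the limit raised to 1 FPKM, 30 of 61 were more than 2-fold lower. The median levels were then 0.702 FPKM in cold acclimated cells and 1.43 FPKM in control cells. For the pseudocount of 1 FPKM and the limit of 1 FPKM, the share over all lncRNAs was not computed. Whether lower lncRNAs were in excess at these 2 settings therefore cannot be told. With 1 transcript per gene, an alternative chosen after seeing the data, 26 were more than 2-fold lower and the median level was 0.685 FPKM in cold acclimated cells. Of 39 values of the 5 main results under these and the other alternatives, 30 stayed within 1.5 times the count or within the interval of the median. The other 9 are those given here. Among the 30, the count of 34 lower lncRNAs after centring, against 51, lies at the limit of 1.5 times. The median log2 ratio with 1 transcript per gene, -0.58, likewise lies at the bound of its interval. Counts were compared without regard to the number of lncRNAs, which was 61 in place of 98 at the limit of 1 FPKM. The higher median levels at that limit follow in part from removing low lncRNAs. Only the median log2 ratios could change sign, and 0 did. Restricting the members to genes of channels and receptors removed none, so its values, counted among the 30, equal the main ones by construction. Leaving out the lncRNAs at htr7c was likewise chosen after seeing the data. The precision of single lncRNAs is limited by the unknown depth and by levels that are mostly near 1 FPKM.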

Other observations

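Runs like that at htr7c were looked for at the other named genes. At 25 of them, 5 or more loci were listed, and their median log2 ratios of cold acclimated over control cells ranged from -3.42 to 0.59, with a middle value of -0.60. At 4 of the 25, each with 5 lncRNAs, every lncRNA was more than 2-fold lower in cold acclimated cells, as was found at htr7c. These were gse1, nrg2a, prkag2b and ptprga, named after their values were seen. They were picked for this pattern, so they are not counted as independent parallels to htr7c. The median log2 ratio was -2.60 at gse1, -2.99 at nrg2a, -2.11 at prkag2b and -2.51 at ptprga, against -2.25 at htr7c. Their median levels in cold acclimated cells were 0.287, 0.0346, 0.114 and 0.158 FPKM in the same order, against 2.58, 1.13, 0.712 and 1.46 FPKM in control cells. All 4 medians were thus below the limit of 0.5 FPKM in cold acclimated cells and above it in control cells. As at htr7c, the separation of the groups is therefore in part set by that limit. No cause was tested.

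Of the gene copies that zebrafish keeps in duplicate, 3 had an lncRNA at both copies. At cacna1aa and cacna1ab the lncRNAs were higher in the cold, with log2 ratios of 3.30 and 1.82. At cacna1da the 2 lncRNAs differed in direction, with log2 ratios of 0.32 and -3.04, and the 1 at cacna1db had -1.58. At gabra6a and gabra6b, with 1 lncRNA each, the log2 ratios were -1.39 and -0.04. With 3 such cases, no statement on copies in general can be made.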
